A study of Caenorhabditis elegans with 12 samples.

Results

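The regions described here are stretches of the Caenorhabditis elegans genome where KLF-1-YFP was called enriched in WT animals and not in isp-1;ctb-1 mutants. They were chosen by the presence of peaks in the deposited lists of 6 ChIP-seq libraries. All 3116 peaks, with no threshold, were joined into 1218 regions wherever peaks shared at least 1 bp. A region was kept if it held a peak of at least 2 of the 3 WT lists and no peak of any of the 3 isp-1;ctb-1 lists. This left 141 regions with 343 peaks, which is 11.6% of all regions. Positions are given as in the deposited lists, in coordinates of the WBcel235 assembly. The number and the strain difference follow from that selection and are given as a description, with no test.

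The mutant strain carried the alleles isp-1(qm150) and ctb-1(qm189), and the WT strain had the N2 background, with 3 ChIP libraries and 3 input libraries each. Both strains also carried the same integrated transgene, Is[pvha-6::klf-1-yfp], in which the intestinal vha-6 promoter drives klf-1 fused to yfp. The plasmid was injected together with prab-3::mCherry and rol-6(su1006) plasmids, and the line was crossed into the mutant, so the signal comes from a single insertion line, from tagged KLF-1 made in the intestine beside the endogenous protein, while DNA was taken from whole animals. Synchronised animals were fed HT115 bacteria with the empty vector L4440 and collected on day 1 of adulthood, and the tagged protein was pulled down with GFP-TRAP. No sample without the tag was analysed here, so recovery of chromatin without the tag was not measured.

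KLF-1 is one of the Krüppel-like factors, transcription factors whose C-terminal zinc fingers bind GC-rich and CACCC-type sequences. The study asked where KLF-1 sits on the genome when mitochondria are impaired, with genes of xenobiotic detoxification such as the cytochrome P450 (cyp) genes as candidates. The isp-1 and ctb-1 genes encode subunits of respiratory complex III, and the mutant is long-lived. A peak list gives fold enrichment over the input and an extent, and reports neither the reads behind a peak nor a value where no peak was called. Absence of a peak is thus a missing call and not a measured zero.

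Libraries 1, 2 and 3 gave 620, 386 and 565 peaks in isp-1;ctb-1, against 577, 665 and 303 in WT. By the study's reporting summary, all ChIP libraries of the mutant were sequenced to more uniquely mapped reads than those of WT, so strain and depth cannot be told apart in these lists. The median peak was 317, 372 and 358 bp wide across isp-1;ctb-1 libraries, against 412, 400 and 495 bp in the WT libraries. The mean was 349 ± 28.6 bp in isp-1;ctb-1 and 436 ± 51.7 bp in WT (SD, n = 3 each). The strains did not overlap, and the two-sided exact permutation test gave p = 0.1, the smallest that 3 against 3 libraries allow. The part of peak width in which regions count as WT only was not tested.

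WT libraries 1 and 2 carried most of the WT-only regions. Of the 141 regions, 93 had peaks in WT 1 and 2 alone, 38 in all 3 WT lists, 8 in WT 2 and 3 and 2 in WT 1 and 3. WT 1 had a peak in 133 of the regions, WT 2 in 139 and WT 3 in 48. Member peaks made up 24.3% of the WT 1 list, 23.2% of the WT 2 list and 16.2% of the WT 3 list. Without WT 3 the same rule, with a peak asked in both remaining lists, gave 134 regions. Without WT 1 it gave 48 and without WT 2 it gave 43, so the number rests on the pair WT 1 and WT 2. Without isp-1;ctb-1 library 3 it gave 206 regions.

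Enrichment in the WT-only regions was modest in every WT library. Member peaks had a median fold enrichment over input of 1.78 in WT 1 (140 peaks, 1.37 to 2.57), 1.74 in WT 2 (154 peaks, 1.34 to 2.32) and 1.59 in WT 3 (49 peaks, 1.29 to 2.04). The other peaks of the same libraries had medians of 1.90, 1.90 and 1.68. Member peaks were also narrower at the median, with 357, 376.5 and 316 bp, against 464, 422 and 570 bp for the other peaks. Width and enrichment bear on whether a peak meets a peak of another list, so both comparisons are descriptions of the selection. Of the member peaks, 17 (4.96%) had a deposited p-value under 0.05 together with a fold enrichment over 1.5, against 205 of the 1202 other WT peaks (17.1%). The lists give a p-value only to peaks with an assigned gene, and of those 10.5% of the 162 member peaks passed, against 35% of the 586 other WT peaks.

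**Figure D1:**
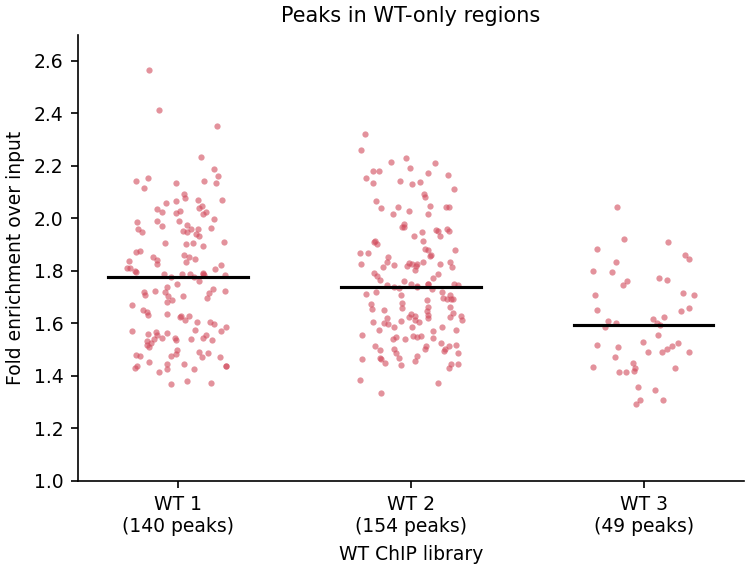
Fold enrichment over input (vertical axis, from 1) of every peak that lies in a WT-only region, in the 3 WT ChIP libraries. Each point is a peak and each bar is the median of the library (1.78, 1.74 and 1.59). Nearly all points lie below 2.5.

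Many of the WT-only regions stood beside isp-1;ctb-1 peaks without touching them. The nearest isp-1;ctb-1 peak lay at a median distance of 3052 bp, with quartiles of 584 and 27379 bp and a range of 18 to 328321 bp. For 28 of the 141 regions it lay within 500 bp, for 47 within 1000 bp and for 88 within 5000 bp. Only 20 lay more than 100 kb away. Such distances were not counted for other classes of regions, so they are a description of the WT-only regions alone. When peaks up to 500 bp apart were also joined, the rule gave 80 regions in place of 141. Of the 141, 53 were then joined to an isp-1;ctb-1 peak, directly or through other peaks, and the other 88 fell into 71 of the 80 regions.

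**Figure D2:**
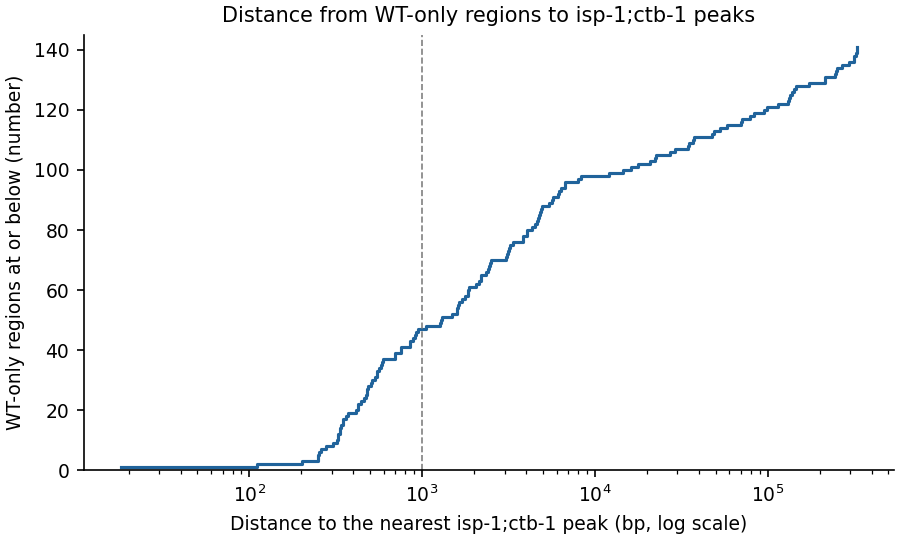
Number of WT-only regions (vertical axis) whose nearest isp-1;ctb-1 peak lies at or below a given distance (horizontal axis, bp, log scale). The dashed line marks 1000 bp, at which 47 of 141 regions are reached.

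A single region fell within 100 bp of an isp-1;ctb-1 peak and so stood just inside the rule. It lay at I:14452966-14453779, 1077 bp from catp-1, which encodes a cation-transporting P-type ATPase, with an isp-1;ctb-1 peak 18 bp away. Its fold enrichment was 1.57, 1.63 and 1.49 in WT 1, 2 and 3. Just outside the rule stood 81 regions with a peak in at least 2 WT lists and in exactly 1 isp-1;ctb-1 list. Of these, 63 were lost to library 3, 10 to library 2 and 8 to library 1. The 3 best of them by rank of enrichment in WT lay side by side on X. X:7358916-7361257 had a fold enrichment of 1.90 in isp-1;ctb-1 library 3, against 2.23, 2.48 and 2.17 in the WT libraries. X:7356896-7357963 had 1.84 in isp-1;ctb-1 library 3, against 2.15 and 2.04 in WT 2 and 3, and X:7354659-7355628 had 1.81, against 2.43 and 2.11 in WT 1 and 2. The last of these lies between 2 WT-only regions, X:7353583-7354604 with peaks in WT 2 and 3 and X:7356119-7356806 with peaks in WT 1 and 2. From X:7356119-7356806 it differs in its lists only by the call in isp-1;ctb-1 library 3. A further 282 regions had a peak in 1 WT list alone and none in isp-1;ctb-1, of which 185 were in WT 2, 94 in WT 1 and 3 in WT 3.

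The WT-only regions were distributed over all nuclear chromosomes. Chromosome V held 30, III 27, X 25, II 22, and I and IV 18 each, and the mitochondrial genome held 1. Per Mb this was 1.96 on III, 1.44 on II, 1.43 on V, 1.41 on X, 1.19 on I and 1.03 on IV. Relative to all regions on each chromosome, the share that was WT only ranged between 8.41% on I and 15.9% on V. With each chromosome cut into 3 equal parts, the middle part held 46 of 141 regions (32.6%), against 30.7% of all 1218. On average 19.7% ± 4.24 of member peaks and 16.4% ± 2.60 of the other peaks of the same WT library were on X (SD, n = 3 libraries). The share on X was higher for member peaks in 3 of 3 libraries. A two-sided exact permutation test that flips signs over libraries gave p = 0.25, the smallest this test allows (0.333 after Benjamini-Hochberg adjustment over 4 measures). The rule asks for peaks in at least 2 WT lists, so the same regions recur across libraries. The differences of the 3 libraries are thus not independent, and the test cannot show that the share is reproducible.

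Many of the WT-only regions lay in runs. Where regions within 20 kb of each other were joined, 64 of the 141 (45.4%) fell into 14 runs of 3 or more, 24 formed 12 pairs and 53 stood alone. Across the runs there were 228 WT peaks and 25 isp-1;ctb-1 peaks, and 6 runs held no isp-1;ctb-1 peak. By the rule each member holds peaks of at least 2 WT lists and no isp-1;ctb-1 peak. Peak counts by strain within runs thus follow largely from the selection. In 6 runs no member had a protein-coding gene within 2000 bp. Such a gene lay near 21 of the 64 members in runs (32.8%) and near 54 of the 77 members outside them (70.1%). Members of a run share their neighbourhood, and no test was made of these counts. Runs were not counted for the other classes or for all regions. Whether lying in runs is particular to WT-only regions was thus not measured.

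The longest run covered 26.6 kb of chromosome III, III:7409345-7435900, with 13 of the 25 regions found there. WT 1 had 20 peaks in it, WT 2 had 25 and WT 3 had 4, while isp-1;ctb-1 library 3 had 2 and the other isp-1;ctb-1 libraries had none. No protein-coding gene lay within 2000 bp of it, and the nearest, lgc-50, which encodes a ligand-gated ion channel, lay 13891 bp away. The only one of the 13 members with a peak in all 3 WT lists, III:7418150-7418670, had a fold enrichment of 1.72, 2.17 and 1.66. The other 12 members had peaks in WT 1 and WT 2 alone.

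The second long run covered 22.6 kb of the X chromosome, X:4028264-4050863, with 6 members of 13 regions, and it also had no gene within 2000 bp of a member. Here 4 of the 6 members were in all 3 WT lists. The nearest gene was acr-10, an acetylcholine receptor subunit gene, 2623 bp away. WT 1, 2 and 3 had 9, 12 and 5 peaks in it, and isp-1;ctb-1 library 3 had 2. Another run, II:14324419-14330483, held 6 members in 6.07 kb with no isp-1;ctb-1 peak. Its fold enrichments lay between 1.88 and 2.23, above the medians of member peaks in each WT library, and the gene closest to it, Y54G11A.14, was 3401 bp away. The other runs without a gene within 2000 bp of any member were III:6568214-6570991 (3 members, 1.64 to 2.35), V:17386891-17392968 (4 members, 1.47 to 1.97) and X:7352460-7356806 (3 members, 1.75 to 2.18). In V:7916973-7924370 (4 members, 1.35 to 2.23), V:9428459-9435205 (4 members, 1.51 to 1.76) and X:14384884-14389147 (3 members, 1.43 to 1.74) a single member lay near a gene, srsx-7, F36D4.6 and Y60A9.3 in turn, and each of these runs also held a region of both strains.

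Inside genes, the run in ttn-1 had the most members. This gene spans 81.7 kb on chromosome V and encodes a titin-like giant protein of muscle. The 5 members lay in V:6171815-6180551. The member at V:6171815-6172225 had a fold enrichment of 1.79, 1.69 and 1.60 in WT 1, 2 and 3, and V:6179862-6180551 had 2.03 and 2.21 in WT 1 and 2. The regions V:6173843-6174066 and V:6174457-6175108, between the members, were also enriched in isp-1;ctb-1 library 3 (1.99 and 1.61). ZC178.2 held 3 members and ZC247.1 held 3, and both genes also held regions of both strains. In ZC178.2 these were V:8700665-8701364 and V:8701428-8702747. They had 1.60 and 1.52, and 1.61 and 1.74, in isp-1;ctb-1 libraries 2 and 3. The members of ZC247.1 lay on both sides of I:10267688-10271939, with 1.48, 1.43 and 1.61 across isp-1;ctb-1 libraries against 1.90, 1.80 and 1.63 in the WT libraries. Beside pro-2, whose product is related to a ribosome biogenesis factor, 3 members lay in 2.04 kb, the nearest 658 bp from the gene, and had fold enrichments between 1.61 and 1.79. They were in WT 1 and 2 alone.

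The klf-1 gene itself held 3 of the regions, and it is part of the transgene that both strains carry. The members lay at III:2874791-2875143, III:2875497-2875872 and III:2876572-2876978, and their fold enrichments included the lowest member values of WT 1 (1.37) and WT 3 (1.29). The first had 1.38 and 1.41 in WT 2 and 3. The second had 1.37, 1.501 and 1.31 and the third had 1.37, 1.37 and 1.29 in WT 1, 2 and 3. Further along the gene, III:2878262-2878698 and III:2879273-2879764 were regions of both strains. The nearer, III:2878262-2878698, had 1.23 and 1.41 in isp-1;ctb-1 libraries 2 and 3, against 1.48, 1.56 and 1.53 in the WT libraries. The farther had 1.44 and 1.66 in isp-1;ctb-1 libraries 2 and 3, against 1.90, 1.85 and 1.78 in the WT libraries. At vha-6, rab-3 and rol-6, the other genes named in the injected plasmids, the overlapping regions were found in all 6 lists. The same held for unc-54, which was listed here as a plasmid sequence although the methods do not name it. Whether reads of klf-1 came from the transgene or the endogenous locus cannot be told apart.

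**Figure D3:**
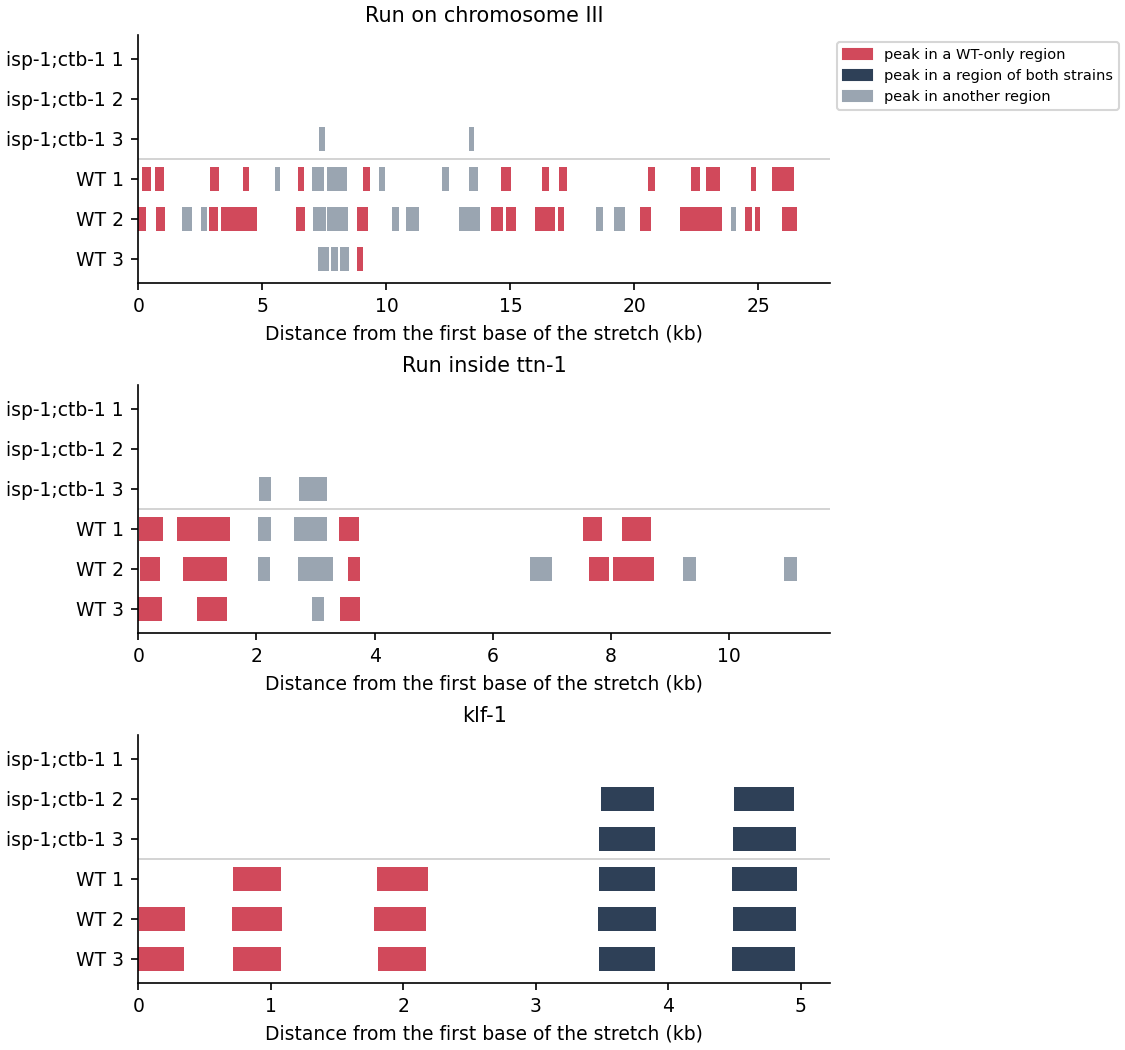
Peaks of the 6 libraries (rows, isp-1;ctb-1 above WT) along the 26.6 kb run on chromosome III, the run in ttn-1 and the klf-1 gene (horizontal axis, kb from the first base of the stretch). Peaks in WT-only regions are red, peaks in regions of both strains dark blue and all others grey. The chromosome III run has peaks of WT 1 and 2 throughout and 2 of isp-1;ctb-1 library 3.

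Several WT-only regions lay at chromosome ends, which were singled out after the values were seen. An end was the stretch within 50 bp of the first base or of the last base that any peak reached. Of the 12 ends of the nuclear chromosomes, 6 were covered by a WT-only region: II right, III right, IV left and right, and V left and right. The outermost regions of both ends of I belonged to both strains, and those of the remaining 4 ends to neither class. The region at the right end of III had a fold enrichment of 1.72, 1.51 and 1.59 in WT 1, 2 and 3, and the one at the right end of IV had 1.76, 1.62 and 1.43. The right end of II had 1.51, 1.54 and 1.45, the right end of V had 1.48, 1.55 and 1.43 and the left end of V had 1.45, 1.46 and 1.36. The left end of IV had 1.54 and 1.45 in WT 1 and 2. Counted over libraries, peaks at chromosome ends were found at 0, 2 and 4 of the 12 ends in isp-1;ctb-1 libraries 1, 2 and 3, against 11, 11 and 9 in the WT libraries. At all 4 ends where isp-1;ctb-1 had a peak, its fold enrichment was below that of every WT library there. This order was not particular to ends. The region in rab-3, whose promoter is in an injected plasmid, showed it too. It had 1.33, 1.45 and 1.67 across isp-1;ctb-1 libraries, against 2.06, 2.01 and 1.89 in the WT libraries. The regions at rol-6 and unc-54 had nearly the same values in each library (1.33, 1.45 and 1.67, against 2.07, 2.01 and 1.89). Why these values were nearly equal was not tested. Away from these genes, I:10267688-10271939 in ZC247.1 had 1.48, 1.43 and 1.61, against 1.90, 1.80 and 1.63. In V:6173843-6174066 the order differed, with 1.99 in isp-1;ctb-1 library 3, against 2.21 and 1.78 in WT 1 and 2. The part of library scale was not tested.

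The only mitochondrial member, MtDNA:13552-13794, reached the end of the linearised sequence, with fold enrichments of 1.99 and 2.04 in WT 1 and 2. Most of the mitochondrial genome lay in a region of both strains, with 1.33, 1.45 and 1.66 across isp-1;ctb-1 libraries, against 2.06, 2.01 and 1.89 in the WT libraries. These values were nearly those of the region in rab-3. The closest protein-coding gene to the member was ND5, a subunit of complex I, 278 bp away.

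**Figure D4:**
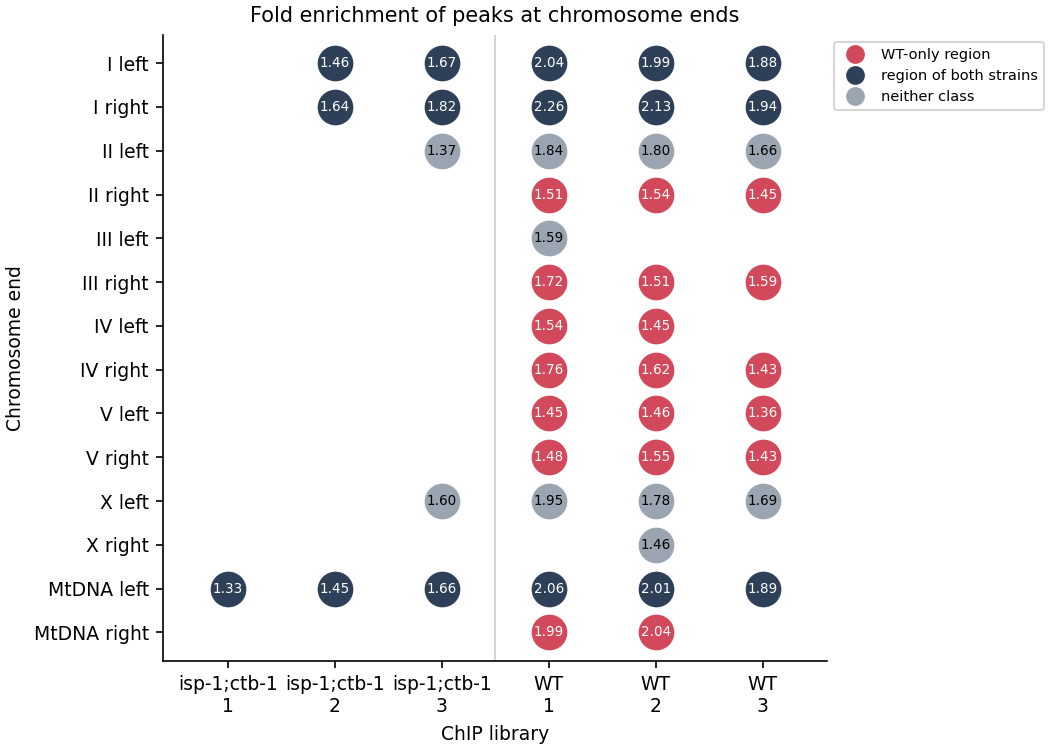
Fold enrichment of the most enriched peak in the outermost region of each chromosome end (rows) in the isp-1;ctb-1 and WT ChIP libraries (columns). A missing circle means that no peak was called. Red circles are WT-only regions, found at 6 of 12 nuclear ends and at the mitochondrial right end.

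Just over 50% of the WT-only regions lay near a protein-coding gene. Such a gene lay within 2000 bp of 75 of the 141 WT-only regions (53.2%), against 139 of 152 regions of isp-1;ctb-1 animals only (91.4%) and 117 of 184 regions of both strains (63.6%). Over all 1218 regions the share was 71.7%. For the 81 regions just outside the rule it was 53.1%, so the low share was not particular to WT-only regions. Of all bases of the genome, 87.9% lay within that distance. A WT-only region overlapped the span of such a gene in 26 cases (18.4%), against 38.8% of isp-1;ctb-1-only, 15.2% of both-strain and 31.5% of all regions. Gene spans make up 61.9% of the genome. For 39 WT-only regions (27.7%) the nearest gene was over 5000 bp away, against 1.97% of isp-1;ctb-1-only, 13.6% of both-strain and 13.8% of all regions. No gene of any kind, non-coding genes and pseudogenes included, lay within 2000 bp of 56 WT-only regions (39.7%), against 4.61% of isp-1;ctb-1-only and 22.8% of both-strain regions. These classes were all chosen by peak presence, so the shares are descriptions. The share was 51.5% for regions in 2 WT lists and 57.9% for regions in all 3, and 51.1% where an isp-1;ctb-1 peak lay within 1000 bp.

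**Figure D5:**
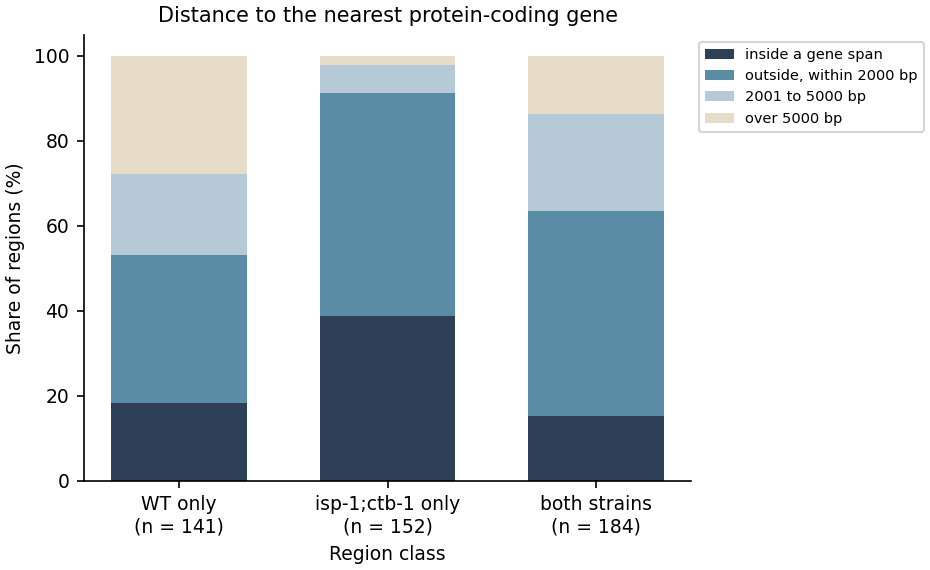
Share of regions (vertical axis, %) by distance to the nearest protein-coding gene, for WT-only regions (n = 141), isp-1;ctb-1-only regions (n = 152) and regions of both strains (n = 184). The WT-only bar has the largest part beyond 5000 bp, 27.7%.

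By the methods, genes within 2000 bp up- or downstream of a peak were assigned to it, whereas in the deposited lists the genes of member peaks were overlapped or lay downstream of the peak on their own strand, some of them farther off. Of the 343 member peaks, 162 (47.2%) had an assigned gene, against 53% of all peaks. Of the 239 pairs of peak and gene, 53 overlapped, in 186 the peak was upstream of the gene, up to 4871 bp away, and in 0 it was downstream. In 127 pairs the gap was over 2000 bp. The share of peaks with no assigned gene was 51.5% ± 4.14 for member peaks and 51.2% ± 0.222 for the other peaks of the same WT libraries (SD, n = 3). It was higher for member peaks in 2 of 3 libraries, with p = 1 in the exact permutation test over libraries (adjusted p = 1). Here too the same regions recur across libraries, whose differences are not independent.

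Of the 24 gene lists examined, 4 had a gene among the 75 protein-coding genes near WT-only regions, and the list of injected genes was 1 of them, through klf-1. No member lay near a cytochrome P450, UDP-glucuronosyltransferase or glutathione S-transferase gene, the families of xenobiotic detoxification, where regions of isp-1;ctb-1 animals only had none and regions of both strains had 2 P450 genes. Of all 1218 regions, only 3, 1 and 0 lay near a gene of these 3 families. Nuclear hormone receptors, collagens, histones, heat shock and autophagy genes had no WT-only region within 2000 bp either, against 9, 4, 14, 9 and 9 of all 1218 regions. The lists themselves assign a gene of these families to 1 member, I:11450292-11450659, whose peaks in WT 1 and 2 lay 4133 and 4121 bp upstream of the nuclear hormone receptor gene nhr-244. Genes of cytosolic ribosomal proteins were near 0 WT-only regions, 6 isp-1;ctb-1-only regions and 2 regions of both strains, against 22 of all 1218. The nuclear-encoded respiratory chain had 0, 6 and 1, against 13 of all 1218. WT-only regions were 11.6% of all regions, so few were to be found near lists this small, and their absence says little. C-type lectin genes, which encode putative carbohydrate-binding proteins, had 2 WT-only regions (1.42% of them), 0 isp-1;ctb-1-only regions and 5 regions of both strains, against 0.985% of all 1218 regions. F-box genes had 3 WT-only regions (2.13%), 1 isp-1;ctb-1-only region and 4 of both strains, against 1.72% of all regions. Chemoreceptor genes had 3 (2.13%), 0 and 5, against 1.56% of all regions. No test was made of these counts.

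Of the lectin genes, clec-122 was overlapped by the region II:3106294-3107043, with fold enrichments of 1.81, 1.57 and 1.80 in WT 1, 2 and 3, and clec-121 lay 1558 bp from it. The region IV:4421436-4421882 lay 447 bp from clec-175 and had 1.67 and 1.49 in WT 2 and 3. Among F-box genes, fbxa-77 had 2 regions beside it, 103 and 636 bp away, with 1.43 and 1.47 in the nearer and 1.61 and 1.49 in the farther, in WT 1 and 2. The region beside fbxa-190 lay 327 bp from it and had 1.57 and 1.49. The chemoreceptor genes within 2000 bp were srw-4, sri-63 and srsx-7, all more than 1000 bp from their region, with the highest enrichment near srw-4 (2.04 and 1.82 in WT 1 and 2). None of the tissue marker genes of intestine, muscle, pharynx, neurons, hypodermis or germline lay near a WT-only region.

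The best-ranked region in all 3 WT lists was II:3468345-3468841, 497 bp wide and 1216 bp from Y49F6B.20. Its fold enrichments were 2.41, 2.15 and 1.80, at ranks 15, 60 and 76 of their lists. Its neighbour II:3467263-3468156 had 1.83, 1.87 and 1.71, and the nearest isp-1;ctb-1 peak was 327636 bp away from the first of them. The region IV:12170234-12170705 was likewise far from any isp-1;ctb-1 peak (137509 bp). It lay directly beside nlr-1, which encodes a neurexin-like receptor, and had 1.87, 1.97 and 1.76.

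Of the others among the best 12, some stood close to a mutant peak. The region I:13404825-13407441, 719 bp from mihp-1, was the second widest of all members at 2617 bp and had 2.05, 1.84 and 1.91, with an isp-1;ctb-1 peak 479 bp away. I:10131930-10132397 had 2.02, 1.92 and 1.53, 249 bp from a mutant peak and 1715 bp from rbm-12, which encodes an RNA-binding protein. V:8714271-8714870, 1625 bp from the glutamate receptor gene glr-5, had 1.84, 1.82 and 1.71, with the nearest mutant peak 12142 bp away. The gene-free regions X:7352460-7353059 (2.14, 1.82 and 2.04) and II:14327193-14327887 (1.96, 1.95 and 1.88) belong to runs given above.

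A total of 4 regions held a peak with a deposited p under 0.05 and a fold enrichment over 1.5 in at least 2 WT lists, and 1 of them in all 3. That region, II:8287604-8287917, lay 1893 bp from cct-4, a subunit of the cytosolic chaperonin, and 4396 to 4416 bp upstream of nst-1, the gene the lists assign, which encodes a nucleostemin-family GTPase. It had fold enrichments of 1.81, 1.88 and 1.72 and deposited p-values of 0.0294, 0.0161 and 0.0418. IV:8572660-8573035 lay 839 bp from Y59H11AM.1 and had 1.80, 2.03 and 1.85 with p-values of 0.0609, 0.0111 and 0.0359. I:4548180-4548543 lay 1138 bp from Y119C1B.3 and had 1.87, 1.88 and 1.65 with 0.0215, 0.0211 and 0.0790. V:17392221-17392968, 2706 bp from srh-120, a chemoreceptor gene, had 1.97 and 1.83 in WT 1 and 2 with 0.0282 and 0.0471. All 4 had an isp-1;ctb-1 peak 260 to 913 bp away.

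Among regions in exactly 2 WT lists, the best by mean rank, and also by fold enrichment, was IV:11035226-11036050, with 2.57 and 2.26 in WT 1 and 2, at ranks 7 and 25. WT 2 had a further, weaker peak in it, with 1.57 at rank 605. The region lay 532 bp from fkb-1, an FK506-binding-type peptidyl-prolyl isomerase gene, and 1627 bp from hrg-6, a gene of the heme-responsive family, with the nearest isp-1;ctb-1 peak 34865 bp away. Next by mean rank, over lists of unequal length, came X:7353583-7354604 with 2.18 and 1.92 in WT 2 and 3, II:14329095-14330483 with 2.23 and 2.13 in WT 1 and 2, V:7916973-7917323 with 2.09 and 2.23, and III:13243507-13244058 with 2.12 and 2.16, of which only the last lay near a protein-coding gene, Y43F4A.4 at 1523 bp. The other 3 of the best 8 were II:14324419-14324718 (2.07 and 2.22), III:6568214-6569343 (2.35 and 2.05) and III:7434886-7435900 (2.08 and 2.14), all parts of runs without genes.

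Some regions overlapped or stood beside genes with well-known functions, and these were chosen for their genes after the values were seen. The region III:11431360-11431688, inside sbp-1, the SREBP homologue that controls lipid synthesis, had 1.82 and 1.49 in WT 1 and 2, and the nearest isp-1;ctb-1 peak lay 245463 bp away. A region inside anc-1, which anchors nuclei and mitochondria to the cytoskeleton, at I:4352875-4353782, had 1.90 and 1.77, with an isp-1;ctb-1 peak 371 bp away. A region inside cla-1, a gene of the presynaptic active zone, at IV:7598359-7598716, had 1.90 and 1.72, and the nearest isp-1;ctb-1 peak was 5671 bp away. A region 915 bp from the SNARE gene memb-1, at X:9438745-9439164, had 1.54, 1.69 and 1.42, and the nearest was 249991 bp away.

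The WT-only regions had a median width of 476 bp, with quartiles of 364 and 689 bp and a range of 202 to 3124 bp, and they covered 83.89 kb in all. Regions of isp-1;ctb-1 animals only had a median of 405 bp and regions of both strains 1151 bp. Only 2 WT-only regions were wider than 2000 bp, against 38 of 184 in the both-strain class. A merged region widens with each peak joined to it, and a wide one more easily meets an isp-1;ctb-1 peak. These width differences between classes thus follow in part from the selection. The widest, V:7919868-7922991, overlapped the non-coding RNA gene Y97E10B.12, and had fold enrichments of 1.75, 1.63 and 1.35. The widest after those 2 was III:7431186-7432889 with 1704 bp. The narrowest were IV:17492610-17492811 with 202 bp, near nas-6, a gene of an astacin-type metalloprotease, V:17428767-17428975 with 209 bp, over the 5S ribosomal RNA gene rrn-4.15, and IV:14213158-14213385 with 228 bp, over the pseudogene F02H6.4.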

How the data were processed

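ChIP-seq was run on 6 KLF-1-YFP pull-downs and 6 inputs, 3 of each per strain. The authors checked reads (FastQC 0.10.1), aligned them with BWA (its version is not given in sources used here) to the Ensembl C. elegans genome and called peaks per library against input with MACS2 2.0.10, in the QuickNGS pipeline. The deposited lists give each peak's fold enrichment, a ratio over input, and a deposited p-value for peaks with an assigned gene. The read depth behind a peak is not given, so precision per peak is unknown. A further deposited table of the authors' own comparison, with 2 condition means whose columns name no strain, was not used.

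Peaks with 1 bp or more in common were merged (Python 3.11.15, numpy 2.4.6, pandas 2.3.3), tested on simulated peaks. Genes came from RefSeq (WBcel235), by distance to the gene span; 70.2% of the 1002 genes in the lists shared a boundary base with it. No exon positions or genome sequence were used here. Named regions were: the 12 best by mean rank of fold enrichment in all 3 WT lists, the 8 best in exactly 2, the 3 widest and 3 narrowest, runs of 3 or more within 20 kb, up to 4 near each gene list, those passing p under 0.05 and fold over 1.5 in at least 2 lists, and those just inside or outside the rule; others are said to be chosen later. Rule, lists and members were chosen with earlier results of these data known. Labels do not say that libraries came from separate cultures, so p-values measure only the spread between these libraries. Exact permutation tests were made over libraries. Alternatives were other fold limits, merging rules, gene windows, each list left out and a replicate block.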

Additional observations from a re-analysis of the deposited data

How the results depend on the processing

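The number of WT-only regions was 141. It was 54 with only peaks of fold enrichment over 2, 31 with peaks over 1.5 and a deposited p under 0.05, 38 with all 3 WT lists asked and 80 with peaks up to 500 bp apart joined. It was 158 with fold over 1.5, 134 with merging at 50% of the shorter peak and 139 without regions over 2000 bp. Leaving out each list in turn gave 43 to 206 regions: 48 without WT 1, 43 without WT 2, 134 without WT 3, and 151, 153 and 206 without isp-1;ctb-1 libraries 1, 2 and 3. Of the 141 regions, 46, 39 and 131 overlapped a region kept without WT 1, 2 and 3. The share near a protein-coding gene, 53.2%, was 18.4% for the gene span only and 72.3% for 5000 bp on either side, and lay between 51.5% and 56.3% with each list left out.

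The difference in the share of peaks with no assigned gene, 0.286 percentage points, ranged from -1.56 to 2.55 with each WT library left out (-1.56 without WT 1 and -0.136 without WT 2), so it has no stable direction. With the replicate block, the median peak width in isp-1;ctb-1 minus WT was -86.7 bp (p = 0.25, exact sign-flip permutation over the 3 replicate numbers, the smallest it allows), as without it. Labels give no shared origin for equal numbers. With each library left out the difference lay between -105 and -57 bp. The lists hold no value where no peak was called, which limits all of these counts.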
